A study of Homo sapiens with 12 samples.

Results

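The ADAM, ADAMTS and ADAMTSL genes of A549 cells are described here. The members are the 46 of 58830 table entries whose symbol is ADAM, ADAMTS or ADAMTSL followed by a number, which gives 22 ADAM, 19 ADAMTS and 5 ADAMTSL genes. Of these, 28 (13 ADAM, 13 ADAMTS and 2 ADAMTSL) reached a normalized count of 10 in 3 or more of the 12 libraries and could be tested. The other 18 are accounted for by name near the end.

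A549 is a human lung adenocarcinoma epithelial line. RNA was sequenced from wild type A549 and from 1 derivative, named Sm22mut, whose genotype label is miR22/SNAI1 target site KO and which is called the edited line here. Cells of each line were left untreated or were given TGFβ, which induces epithelial-mesenchymal transition, at 10 ng/mL, and all were sampled at day 5, with 3 libraries in each of the 4 groups. The labels call the 3 libraries biological repeats, and p-values measure the spread between them. As 1 derivative was sequenced, effects of the edit and of deriving a line cannot be told apart. SNAI1 reads are no check of the genotype labels, since an edit of a target site may leave them as they are.

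ADAM proteins are membrane-anchored metalloproteases with a disintegrin domain that cut the extracellular part off other membrane proteins, a process called ectodomain shedding. ADAM10 and ADAM17 are the main sheddases of growth factor precursors, cytokines, Notch receptors and cadherins in epithelia, and several other ADAM proteins have lost the catalytic site and act in cell adhesion. ADAMTS proteins are secreted, carry thrombospondin repeats and cut matrix proteins such as versican, procollagens and von Willebrand factor, and the ADAMTSL proteins resemble them without a protease domain. Both kinds of protease are made as inactive precursors that proprotein convertases such as furin process, and TIMP proteins inhibit many of them.

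The start regions of 4 members on which the results turn are shown first, each as the 250 bases before the annotated start, 5′ to 3′ on the gene's own strand. They come from the RefSeq promoter table for GRCh38.p14, which held 29 of the 46 members in 30 windows. ADAM19 is shown as the member with the largest response to TGFβ, ADAMTS6 as a large ADAMTS response, and ADAMTS12 and ADAM10 as members whose response differed between the lines. Capitals mark matches, on either strand, to 3 motifs: CAGAC (letters bound by SMAD proteins), TGANTCA (AP-1) and CACCTG (an E-box read by SNAI and ZEB proteins).
ADAM19, chr5:157575776-157576025, minus strand: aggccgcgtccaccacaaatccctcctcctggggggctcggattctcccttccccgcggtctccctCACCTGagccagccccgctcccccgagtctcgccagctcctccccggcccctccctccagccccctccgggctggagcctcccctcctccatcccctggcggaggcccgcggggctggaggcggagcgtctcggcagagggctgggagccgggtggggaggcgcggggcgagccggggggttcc
ADAMTS6, chr5:65481921-65482170, minus strand: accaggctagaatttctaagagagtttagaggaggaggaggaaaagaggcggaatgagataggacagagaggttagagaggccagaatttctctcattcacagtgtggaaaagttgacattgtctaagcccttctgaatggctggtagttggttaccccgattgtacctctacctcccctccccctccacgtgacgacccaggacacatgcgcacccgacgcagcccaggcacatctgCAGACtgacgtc
ADAMTS12, chr5:33891991-33892240, minus strand: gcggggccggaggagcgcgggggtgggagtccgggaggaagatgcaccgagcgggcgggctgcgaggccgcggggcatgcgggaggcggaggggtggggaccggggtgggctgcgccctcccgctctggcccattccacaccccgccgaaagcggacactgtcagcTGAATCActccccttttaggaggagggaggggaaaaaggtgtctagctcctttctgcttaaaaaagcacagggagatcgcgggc
ADAM10, chr15:58749708-58749957, minus strand: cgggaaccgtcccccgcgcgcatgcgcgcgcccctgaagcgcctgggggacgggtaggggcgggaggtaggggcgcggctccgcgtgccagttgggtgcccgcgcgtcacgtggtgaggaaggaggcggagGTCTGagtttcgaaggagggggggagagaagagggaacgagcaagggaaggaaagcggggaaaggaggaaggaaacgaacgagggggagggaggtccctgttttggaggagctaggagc
The ADAM19 window held CACCTG with its first base 184 bases before the start, the ADAMTS6 window held CAGAC at 12 bases, the ADAMTS12 window held TGANTCA at 84 bases, and the ADAM10 window held CAGAC on the other strand at 119 bases. Among 35116 windows of the same length in the table, 38.0% held CAGAC, 6.57% TGANTCA and 17.5% CACCTG. Among the 30 member windows the numbers were 13, 1 and 7. The windows of ADAM22 and ADAM23, whose response also differed between the lines, held none of these motifs and are not shown. These matches are letters in a window and are not shown to be binding sites.

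Recovered reads ran from 84210775 to 111141708 per library, and principal component 1 (70.5% of the variance) separated treated from untreated libraries. The summed count of 6 epithelial markers (KRT7, KRT8, KRT18, KRT19, EPCAM and CDH1) was 586425 to 605533 without TGFβ and 486508 to 624465 with it in wild type, and 625511 to 648914 and 502527 to 576451 in the edited line. Within this sum, CDH1 was at 26688 to 30328 and 9000 to 9375 in wild type and at 32369 to 35810.3 and 9981 to 10647 in the edited line, whereas KRT7 was at 48633 to 51735 and 95343 to 116148, and at 68677 to 74410 and 95819 to 106857. The sum of 6 fibroblast markers (PDGFRA, PDGFRB, THY1, DCN, LUM and FAP) was 147 to 185 and 1238 to 1449.8 in wild type, and 180 to 259 and 1769 to 2110.3 in the edited line, so it was higher in every treated library, alongside the TGFβ results below, and none of the 6 was at 0 in all 12 libraries. Its part in the results was not tested, and DCN stayed at or below 18.2. The sum of 5 endothelial markers (PECAM1, CDH5, KDR, TEK and EMCN) was 98.7 to 120.3 untreated and 12.5 to 43.7 treated in wild type, and 121 to 167 and 29.2 to 59.2 in the edited line. This sum was lower with TGFβ, but its members went different ways. PECAM1 was at 92.7 to 113.7 and 0 to 3.36 in wild type, and at 110.5 to 160.9 and 2.15 to 9.10 in the edited line. TEK was higher with TGFβ, at 0 and 10.5 to 37.0 in wild type, and at 0 to 2.06 and 16.7 to 44.1 in the edited line. CDH5, KDR and EMCN stayed at or below 15.9. The sum of the leukocyte markers was 337 to 423 and 240 to 285 in wild type and 314 to 342 and 257 to 309 in the edited line. Most of it came from ITGAM (163 to 335) and CD14 (36.6 to 106), while the T cell marker CD3E was at or below 1.65. Their part in the results was not tested.

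**Figure D1:**
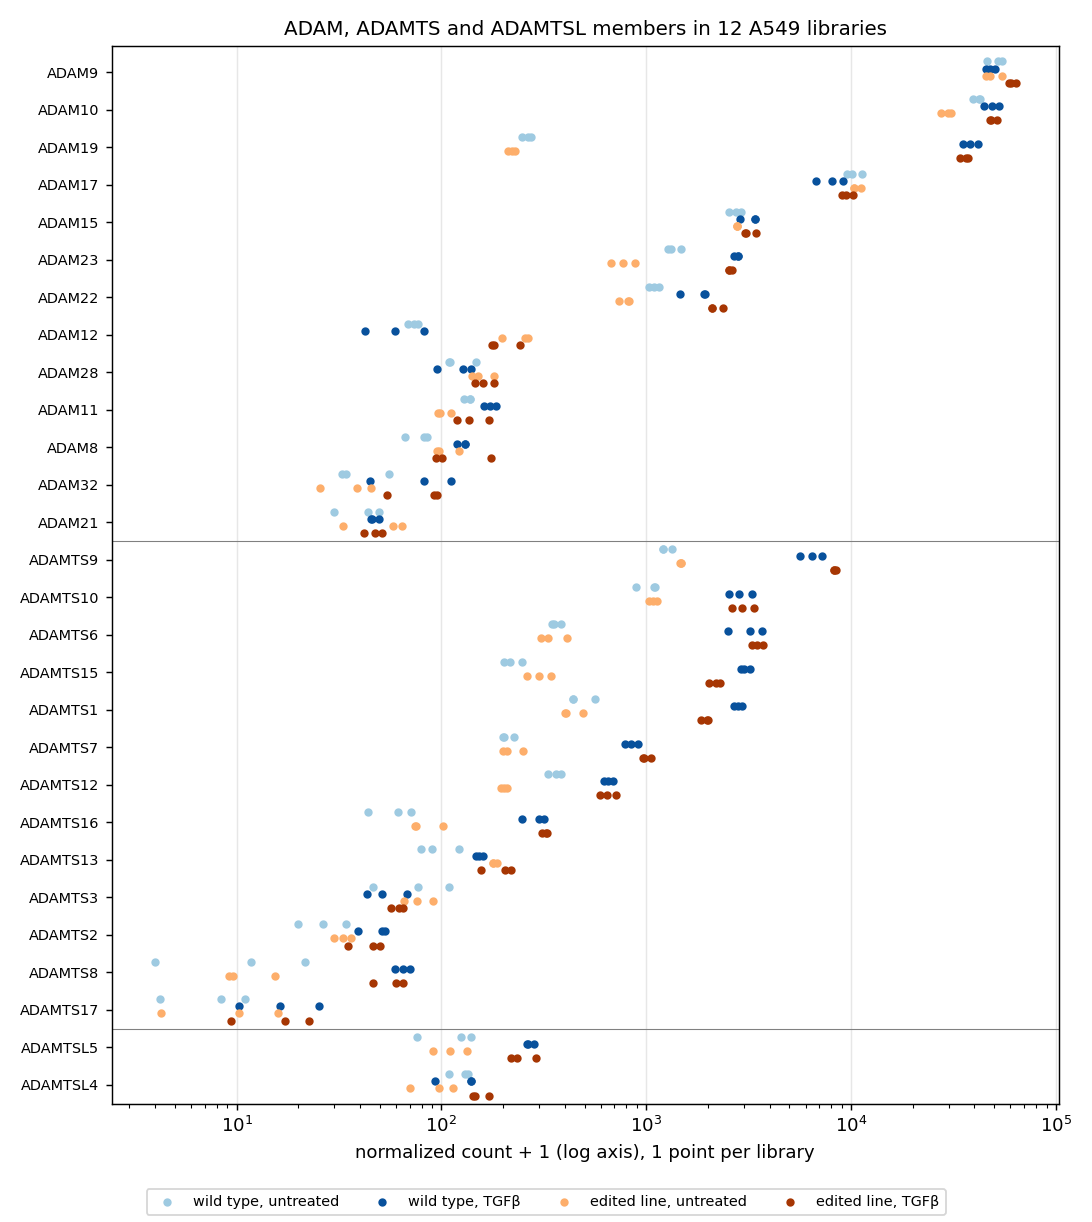
Normalized counts plus 1 (log axis) of the 28 members that passed the filter, 1 point per library, grouped as ADAM, ADAMTS and ADAMTSL and ordered by their mean over 12 libraries. ADAM9 and ADAM10 are high in all groups, whereas ADAM19 moves from 211 to 272 in the 6 untreated libraries to 34053 to 41855 in the 6 treated ones.

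With TGFβ, members of all 3 families rose in wild type, led by the ADAM gene ADAM19 and 8 ADAMTS genes. Of the 28 tested members, 20 (71.4%) passed the test (limma, two-sided, adjusted p under 0.05), against 61.7% of all 20456 tested genes. Of these, 19 rose (67.9%) and 1 fell (3.57%), where 30.8% of all tested genes rose and 30.9% fell. The other 18 of the 46 members were not tested, and since 1 group alone can carry a gene past the filter, these shares are a description. At least 2-fold rises were found for 11 members and falls for 0, where 15.1% of tested genes rose and 9.85% fell that much. In the edited line 19 members (67.9%) passed, against 62.8% of all tested genes. All 19 rose and 0 fell, against 32.1% and 30.7%, and 14 rose and 0 fell at least 2-fold, against 15.6% and 10.7%. The median log2 fold change of all tested genes was 0.02 in wild type and 0.03 in the edited line. The 2 responses come from separate libraries: 16 members rose in both lines, 4 passed the threshold in wild type alone, 3 in the edited line alone, and 0 moved in opposite directions. Matching counts over all 20456 tested genes were not made, so these numbers do not set the members apart from other genes. Passing in 1 line alone does not show that the lines differ, which is tested further on. In bulk RNA, fewer cells of a kind and less RNA per cell cannot be told apart.

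ADAM19 (ENSG00000135074.15, chromosome 5, 157477304 to 157575775 on GRCh38) encodes a sheddase of neuregulins known from heart development. For all genes here, positions are from RefSeq and identifiers from GENCODE 29. Its normalized count was 264, 246 and 272 in the untreated wild type libraries, 35344, 38054 and 41855 with TGFβ, 211, 221 and 227 in the untreated edited libraries and 37412, 34053 and 36357 with TGFβ. The treated and untreated libraries were far apart in both lines, with 148 times the untreated mean in wild type and 163 times in the edited line. On the log2 scale the rise was 7.20 ± 0.07 (adjusted p = 2.69e-19) and 7.35 ± 0.07 (adjusted p = 1.96e-19). The difference between the 2 responses was 0.15 (95% interval -0.065 to 0.36, adjusted p = 0.352). ADAM19 overlaps NIPAL4 and CYFIP2 on the other strand, and the sources used here do not say whether reads were counted by strand. NIPAL4 averaged 94.8 untreated and 5722 treated in wild type, against 188 and 5405 in the edited line, and CYFIP2 5107 and 15557, and 6761 and 16968. The share of these reads that overlaps ADAM19 was not tested.

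Among the other ADAM genes with a catalytic site, the 2 most abundant per length were ADAM9 and ADAM10. ADAM10 (ENSG00000137845.14, chromosome 15, 58588809 to 58749707), which sheds Notch receptors and cadherins, was counted at 42546, 39405 and 42085 in the untreated wild type libraries, 44417, 48800.2 and 52650.1 with TGFβ, 29615, 27341 and 30894 in the untreated edited libraries and 47905, 48438 and 51744 with TGFβ. The untreated edited libraries were the lowest and did not overlap any other group, and the treated groups of the lines overlapped. ADAM10 rose by 0.23 ± 0.07 (adjusted p = 0.00939) on the log2 scale in wild type and by 0.75 ± 0.07 (adjusted p = 9.38e-08) in the edited line. ADAM9, a sheddase and integrin ligand, was the most abundant member per kb of exon in all 4 groups, with counts of 54394, 45967 and 51971 in the untreated wild type libraries, 45449.9, 47910.4 and 50463 with TGFβ, 45351, 47894 and 54313 in the untreated edited libraries and 59352, 60309 and 63686 with TGFβ. The treated edited libraries were the highest group and did not overlap the others. ADAM9 rose in the edited line by 0.32 ± 0.08 (adjusted p = 0.00209), and in wild type its log2 fold change was -0.081 ± 0.08 (adjusted p = 0.388).

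ADAM17, the sheddase of TNF and of several EGFR ligands, was the member that fell. Its counts were 9595, 11369.5 and 10142 in the untreated wild type libraries, 6754, 8029 and 9184 with TGFβ, 10339, 11229 and 10388 in the untreated edited libraries and 8981, 9465 and 10218 with TGFβ. Treated wild type lay below untreated wild type without overlap, a log2 fold change of -0.38 ± 0.09 (adjusted p = 0.00211), and passed in all 25 alternative settings. In the edited line the treated libraries also lay below the untreated ones without overlap. The log2 fold change there was -0.16 ± 0.09 (adjusted p = 0.157), which passed with only the compared groups fitted (-0.16). The difference between the responses was 0.23 (95% interval -0.057 to 0.51, adjusted p = 0.279), which passed without treated wild type replicate 3 (0.33). ADAM17 overlaps IAH1 on the other strand. IAH1 averaged 4120 without and 4323 with TGFβ in wild type, and 3921 and 4749 in the edited line. Its part in the ADAM17 counts was not tested. In treated wild type replicates 1, 2 and 3 the mitochondrial share of the total was 3.79%, 3.22% and 2.73%, so ADAM17 was lowest where that share was highest. This order was not particular to ADAM17. The summed count of the ADAM genes ran 140172, 151420 and 162480 over these libraries, and that of the ADAMTS genes 18452, 20205 and 22597. Not every member followed it, as ADAM15 was at 3414, 3413 and 2875. The part of this share in the ADAM17 result, and in other comparisons that use these libraries, was not tested.

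ADAM15, an ADAM with an integrin-binding motif, was at 2533 to 2909 untreated and 2875 to 3414 treated in wild type, which overlapped. It rose by 0.24 ± 0.08 (adjusted p = 0.012) in wild type and 0.20 ± 0.08 (adjusted p = 0.0319) in the edited line, from means of 2725 ± 188 and 2765 ± 6.24. The first of these calls was lost without untreated wild type replicate 2 (0.19) or treated wild type replicate 2 (0.20), and the second without untreated edited replicate 1 (0.20), untreated edited replicate 2 (0.20), untreated edited replicate 3 (0.20), treated edited replicate 1 (0.15), with no filter (0.20), with equal library totals (0.13), with TMM factors (0.17), with edgeR on the recovered reads (0.17) or without replicate 1 of both treated groups (0.15). ADAM8, a leukocyte-associated sheddase, rose in wild type from 65.8, 81.6 and 83.8 to 118, 129 and 129 (log2 fold change 0.70 ± 0.23, adjusted p = 0.0138), a call lost without untreated wild type replicate 1 (0.59) or after quantile normalization (0.45). In the edited line ADAM8 was at 95.9, 121 and 94.0 untreated and 100.2, 174 and 93.3 with TGFβ, which overlapped (log2 fold change 0.19 ± 0.23, adjusted p = 0.485). For ADAM28, a metalloprotease known from lymphocytes, counts were 108 to 147, 94.5 to 139, 141 to 181 and 145 to 179 in untreated and treated wild type and untreated and treated edited libraries. ADAM21, a testis-associated ADAM, was at 28.9 to 63.3 over all 12, and neither ADAM21 nor ADAM28 passed in any comparison.

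The ADAM genes without a catalytic site, or known mainly from neural or reproductive tissue, were represented by ADAM22, ADAM23, ADAM11 and ADAM32. Of 10 members in this class, these 4 could be tested. All 4 rose in the edited line and 3 rose in wild type, where 32.1% and 30.8% of all tested genes rose. The calls of ADAM11 and ADAM32 were lost in some alternatives, as given below. ADAM23 (ENSG00000114948.12, chromosome 2, 206443532 to 206621127), a catalytically inactive adhesion protein that binds LGI proteins on neurons, was counted at 1473, 1279 and 1320.2 in the untreated wild type libraries, 2802, 2683 and 2807 with TGFβ, 878, 671 and 772 in the untreated edited libraries and 2529.6, 2538 and 2635 with TGFβ. Treated libraries were above untreated ones in each line without overlap, a log2 rise of 1.03 ± 0.09 (adjusted p = 3.78e-08) and 1.74 ± 0.09 (adjusted p = 4.86e-11). ADAM22, its relative at the synapse, was at 1087, 1035 and 1147 in the untreated wild type libraries, 1456, 1909 and 1929.8 with TGFβ, 820.2, 736 and 813 in the untreated edited libraries and 2091, 2368 and 2089 with TGFβ. It rose by 0.69 ± 0.10 (adjusted p = 2.12e-05) and 1.47 ± 0.10 (adjusted p = 2.47e-09), again without overlap of treated and untreated libraries.

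ADAM32, a little-studied member known from testis, was counted low, at 31.9, 54.4 and 33.3 in the untreated wild type libraries, 44.0, 81.5 and 111 with TGFβ, 44.4, 24.7 and 37.6 in the untreated edited libraries and 53.2, 91.5 and 94.4 with TGFβ. ADAM32 starts 2.27 kb after the end of ADAM9 on the same strand, with 0 genes between. The part of ADAM9 reads in its counts was not tested. For ADAM32 the wild type groups overlapped and the edited groups did not. Its rises of 0.91 ± 0.36 (adjusted p = 0.0378) and 1.14 ± 0.36 (adjusted p = 0.0116) were lost without untreated wild type replicate 1 (0.78), untreated wild type replicate 3 (0.81), treated wild type replicate 2 (0.84), treated wild type replicate 3 (0.62), with no filter (0.91), after quantile normalization (0.64) or with only the compared groups fitted (0.91) in wild type, and without untreated edited replicate 2 (0.90) or treated edited replicate 3 (0.99) in the edited line. ADAM11, another inactive neural member, rose in the edited line from 94.9, 97.6 and 110.3 to 136, 169 and 118 (log2 fold change 0.47 ± 0.17, adjusted p = 0.0227), a call lost without untreated edited replicate 1 (0.42), untreated edited replicate 2 (0.44), treated edited replicate 2 (0.33), with equal library totals (0.39), after quantile normalization (0.26) or with only the compared groups fitted (0.47). In wild type its log2 fold change was 0.35 ± 0.17 (adjusted p = 0.0756).

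Among ADAMTS genes, the proteoglycan-cleaving class had 4 testable members of 7, ADAMTS1, ADAMTS8, ADAMTS9 and ADAMTS15, and all 4 rose at least 2-fold in both lines. Of all tested genes, 15.1% rose that much in wild type and 15.6% in the edited line. ADAMTS15 (ENSG00000166106.3, chromosome 11, 130448645 to 130476645), a versican- and aggrecan-cleaving enzyme, was counted at 214, 201 and 246 in the untreated wild type libraries, 3003, 2891 and 3212 with TGFβ, 300.2, 340.0 and 262 in the untreated edited libraries and 2280.1, 2015 and 2196 with TGFβ. Its treated mean was 13.8 times the untreated mean in wild type and 7.20 times in the edited line, with log2 rises of 3.78 ± 0.11 (adjusted p = 3.23e-14) and 2.85 ± 0.11 (adjusted p = 9.87e-13). The treated groups of the 2 lines did not overlap. ADAMTS8, whose annotated start lies 20.0 kb from that of ADAMTS15 on the opposite strand with 0 genes between, rose in wild type from 2.99, 20.6 and 10.7 to 63.8, 58.5 and 68.9. Its edited libraries went from 14.4, 8.58 and 8.17 to 63.7, 45.2 and 59.2, with log2 rises for the lines of 2.69 ± 0.48 (adjusted p = 0.000139) and 2.35 ± 0.48 (adjusted p = 0.000458).

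ADAMTS1 (ENSG00000154734.14, chromosome 21, 26835755 to 26845409), a versican-cleaving enzyme that also binds VEGF, was counted at 437, 564 and 437 in the untreated wild type libraries, 2668, 2799 and 2936 with TGFβ, 490.1, 402 and 407 in the untreated edited libraries and 1842, 2006 and 1985 with TGFβ. It rose by 2.55 ± 0.11 (adjusted p = 4.28e-12) on the log2 scale in wild type and 2.17 ± 0.11 (adjusted p = 2.98e-11) in the edited line, and treated edited libraries were all below treated wild type libraries. ADAMTS9 (ENSG00000163638.13, chromosome 3, 64515654 to 64688000), another versican-cleaving enzyme with roles in ciliogenesis, was at 1205, 1203 and 1335 in the untreated wild type libraries, 5656, 6421 and 7239 with TGFβ, 1482, 1462 and 1478 in the untreated edited libraries and 8288, 8227 and 8421 with TGFβ. It rose by 2.36 ± 0.08 (adjusted p = 2.28e-13) and 2.50 ± 0.08 (adjusted p = 1.05e-13), with treated edited libraries all above treated wild type libraries. ADAMTS9-AS1, antisense to it, averaged 25.3 in treated wild type, low beside ADAMTS9.

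The fibrillin-related enzymes ADAMTS6 and ADAMTS10 rose in both lines. ADAMTS6 (ENSG00000049192.14, chromosome 5, 65148738 to 65481920), which acts on fibrillin and LTBP1 microfibrils, was counted at 345, 355 and 382 in the untreated wild type libraries, 2512, 3198 and 3656 with TGFβ, 411, 305 and 330.2 in the untreated edited libraries and 3274, 3715 and 3484 with TGFβ. Treated libraries were 8.65 times the untreated mean in wild type and 10.0 times in the edited line, and the log2 rises were 3.09 ± 0.13 (adjusted p = 3.81e-12) and 3.33 ± 0.13 (adjusted p = 1.36e-12). ADAMTS10, which supports fibrillin microfibrils and is mutated in Weill-Marchesani syndrome, was at 891, 1096 and 1104 in the untreated wild type libraries, 2526, 2827 and 3283 with TGFβ, 1131, 1077 and 1033 in the untreated edited libraries and 2616, 3353 and 2936 with TGFβ. It rose by 1.48 ± 0.11 (adjusted p = 6.65e-09) and 1.45 ± 0.11 (adjusted p = 7.52e-09), and no difference between the lines passed the test for either gene.

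The enzymes that cleave cartilage oligomeric matrix protein are ADAMTS7 and ADAMTS12. ADAMTS7 was counted at 201, 226 and 199 in the untreated wild type libraries, 788, 844 and 914 with TGFβ, 208, 199.5 and 248 in the untreated edited libraries and 959, 978 and 1059 with TGFβ, a log2 rise of 2.02 ± 0.11 (adjusted p = 1.55e-10) and 2.19 ± 0.11 (adjusted p = 4.95e-11). ADAMTS7 overlaps MORF4L1 on the other strand. MORF4L1 averaged 64833 in wild type without TGFβ and 81453 with it, and 57938 and 76127 in the edited line. Its part in the ADAMTS7 counts was not tested. The pseudogenes ADAMTS7P1, ADAMTS7P3 and ADAMTS7P4 were at or below 26.9. ADAMTS12 (ENSG00000151388.10, chromosome 5, 33523535 to 33891990) was at 332, 362 and 383 in the untreated wild type libraries, 619, 653 and 685 with TGFβ, 200.2, 209 and 195 in the untreated edited libraries and 709.9, 597 and 644 with TGFβ. The untreated edited libraries were the lowest of the 4 groups and the treated groups overlapped, with log2 rises of 0.86 ± 0.10 (adjusted p = 2.36e-06) and 1.68 ± 0.10 (adjusted p = 6.31e-10).

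Of the 3 procollagen N-proteinases, which trim fibrillar procollagens, ADAMTS2 rose in wild type and none passed the test in the edited line. In wild type ADAMTS2 was at 18.9, 25.5 and 33.3 untreated and 50.6, 38.4 and 52.1 treated, a log2 rise of 0.86 ± 0.29 (adjusted p = 0.0176) lost without untreated wild type replicate 1 (0.66), treated wild type replicate 1 (0.80), treated wild type replicate 3 (0.78), with no filter (0.86), after quantile normalization (0.56) or without replicate 1 of both treated groups (0.80). In the edited line the log2 fold change was 0.40 ± 0.29 (adjusted p = 0.25). ADAMTS3, the most abundant of the class per length, was at 75.8, 45.3 and 107 in the untreated wild type libraries, 67.0, 42.2 and 50.4 with TGFβ, 89.8, 64.4 and 75.2 in the untreated edited libraries and 63.7, 61.4 and 55.7 with TGFβ, with log2 fold changes of -0.45 ± 0.29 (adjusted p = 0.191) and -0.33 ± 0.29 (adjusted p = 0.342), of which the first passed as a fall without untreated wild type replicate 2 (-0.78) or after quantile normalization (-0.73). COL1A1, the procollagen these enzymes process, averaged 621 ± 69.1 untreated and 155971 ± 4108 with TGFβ in wild type.

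ADAMTS16, an enzyme with few known substrates that has been linked to fibronectin, rose in wild type from 42.9, 60.1 and 69.8 to 299, 247 and 314, and edited libraries went from 74.3, 101 and 73.6 to 310.1, 327 and 323. Its log2 rises were 2.32 ± 0.19 (adjusted p = 2.96e-08) and 1.95 ± 0.19 (adjusted p = 2.14e-07). ADAMTS13, the protease of von Willebrand factor, rose in wild type from 78.8, 120.3 and 89.2 to 158, 147 and 152 (log2 fold change 0.68 ± 0.18, adjusted p = 0.0036). In the edited line it was already at 177, 178 and 186 untreated and at 218, 202 and 156 with TGFβ (log2 fold change 0.077 ± 0.18, adjusted p = 0.729). The difference between these responses was -0.61 (95% interval -1.15 to -0.065, adjusted p = 0.12) and passed without untreated wild type replicate 2 (-0.78). ADAMTS13 overlaps REXO4 on the other strand, which averaged 3060.0 without and 2744 with TGFβ in wild type, and 3652 and 3053 in the edited line. Without TGFβ, REXO4 was thus higher in the edited line, as ADAMTS13 was, and its part in the ADAMTS13 counts was not tested.

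Of the ADAMTSL genes, which encode matrix glycoproteins, ADAMTSL5, a fibrillin-binding protein, was counted at 124, 139 and 75.2 in the untreated wild type libraries, 263, 262 and 282 with TGFβ, 132, 90.1 and 109 in the untreated edited libraries and 288, 233 and 217 with TGFβ. It rose by 1.29 ± 0.21 (adjusted p = 6.37e-05) and 1.16 ± 0.21 (adjusted p = 0.000179). ADAMTSL4, which is mutated in ectopia lentis, was at 129.6, 133 and 108 in the untreated wild type libraries, 92.3, 138 and 139 with TGFβ, 112, 96.5 and 69.5 in the untreated edited libraries and 141, 169 and 144 with TGFβ. It rose in the edited line by 0.72 ± 0.21 (adjusted p = 0.00761), its wild type groups overlapped (log2 fold change -0.028 ± 0.21, adjusted p = 0.92), and the difference between the responses was 0.75 (95% interval 0.11 to 1.40, adjusted p = 0.105). ADAMTSL4-AS1, on the other strand, averaged 5.55 and 15.2 in wild type and 3.94 and 23.2 in the edited line.

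**Figure D2:**
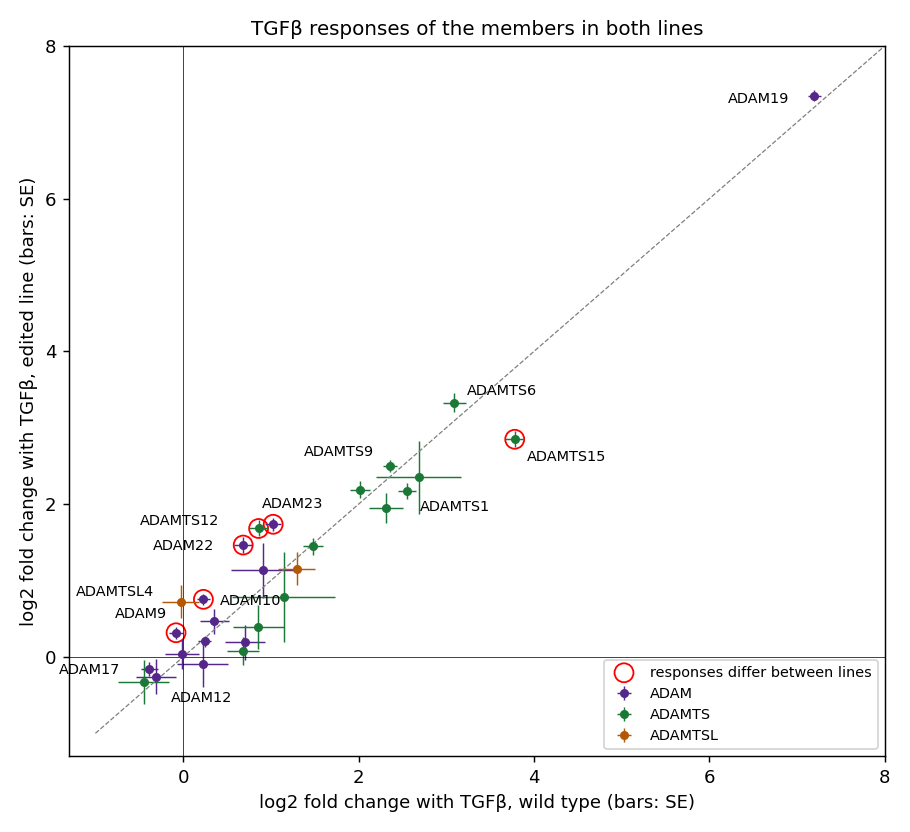
Log2 fold change with TGFβ in wild type (x axis) and in the edited line (y axis) of the 28 tested members, with standard errors as bars and a dashed line where both are equal. Red circles mark the 6 members whose responses differed between the lines, of which ADAM9, ADAM10, ADAM22, ADAM23 and ADAMTS12 lie above the line and ADAMTS15 below it.

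Without TGFβ, the edited line had less RNA of ADAM10, ADAM22, ADAM23 and ADAMTS12 and more of ADAM12, ADAMTS13 and ADAMTS15 than wild type. In all, 5 of the 28 tested members (17.9%) were higher and 5 (17.9%) lower, where 14.3% of all tested genes were higher and 17.5% lower (31.8% in all). At least 2-fold, 1 member (ADAM12) was higher and 0 lower, against 2.99% and 2.01%. The median log2 difference of all tested genes was 0.0021. ADAM12 is a sheddase of heparin-binding EGF that binds syndecans and is known from muscle and placenta. It was counted at 67.8, 72.5 and 76.3 in the untreated wild type libraries, 58.3, 41.2 and 81.5 with TGFβ, 254, 196 and 262 in the untreated edited libraries and 181, 176 and 240.0 with TGFβ, so that the edited libraries lay above the wild type libraries in both conditions without overlap. The log2 difference was 1.69 ± 0.23 (adjusted p = 3.96e-05) untreated and 1.74 ± 0.23 (adjusted p = 0.00014) with TGFβ. Its log2 fold change with TGFβ was -0.31 ± 0.23 (adjusted p = 0.26) in wild type and -0.26 ± 0.23 (adjusted p = 0.341) in the edited line, and the first of these passed as a fall without treated wild type replicate 3 (-0.55) or after quantile normalization (-0.58).

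The other differences between untreated lines were smaller. ADAM23 was at 0.57 times its wild type mean (log2 fold change -0.82 ± 0.09, adjusted p = 4.42e-06), ADAMTS12 at 0.561 times (log2 fold change -0.83 ± 0.10, adjusted p = 2.09e-05), ADAM10 at 0.708 times (log2 fold change -0.50 ± 0.07, adjusted p = 6.01e-05) and ADAM22 at 0.725 times (log2 fold change -0.46 ± 0.10, adjusted p = 0.0024). ADAMTS13 was at 1.88 times (log2 fold change 0.92 ± 0.18, adjusted p = 0.000968) and ADAMTS15 at 1.36 times (log2 fold change 0.44 ± 0.11, adjusted p = 0.00455). Each of these 6 genes passed in all 25 alternative settings. None had overlapping untreated libraries between the lines, which adds no support, as the test on the same libraries picked them. The share of all tested genes without overlap was not counted.

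Calls of 3 further members were lost in several alternatives. ADAM19 was lower in the untreated edited line (log2 fold change -0.24 ± 0.07, adjusted p = 0.0161), a call lost without untreated wild type replicate 1 (-0.23), untreated wild type replicate 3 (-0.21), untreated edited replicate 1 (-0.22), with only the compared groups fitted (-0.24), with edgeR on the recovered reads (-0.22) or with DESeq2 on the recovered reads (-0.24). ADAMTS9 was higher (log2 fold change 0.24 ± 0.08, adjusted p = 0.0258), a call lost without untreated wild type replicate 1 (0.22), untreated wild type replicate 2 (0.22), untreated edited replicate 1 (0.24), untreated edited replicate 2 (0.25) or untreated edited replicate 3 (0.24). ADAMTS16 was higher (log2 fold change 0.53 ± 0.19, adjusted p = 0.049), and its call was lost without each single library other than untreated wild type replicate 3 and treated wild type replicate 3, with values from 0.33 to 0.61. It was also lost with a pseudocount of 10 (0.47), with no filter (0.53), after quantile normalization (0.42), with only the compared groups fitted (0.53), with edgeR on the recovered reads (0.54) or without replicate 1 of both treated groups (0.53). ADAM9 showed a difference of -0.046 (95% interval -0.21 to 0.12, adjusted p = 0.697).

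With TGFβ, 3 of the 28 tested members (10.7%) were higher in the edited line, ADAM9, ADAM12 and ADAMTS9, and 2 (7.14%) lower, ADAMTS1 and ADAMTS15, where 7.38% of all tested genes were higher and 4.32% lower (11.7% in all). At least 2-fold, ADAM12 alone was higher and 0 members lower, against 1.19% and 0.381%. The median log2 difference of all tested genes was 0.0128. ADAM9 was at 1.27 times the wild type mean (log2 fold change 0.35 ± 0.08, adjusted p = 0.00774), ADAMTS9 at 1.29 times (log2 fold change 0.38 ± 0.08, adjusted p = 0.00491), ADAMTS15 at 0.713 times (log2 fold change -0.49 ± 0.11, adjusted p = 0.00677) and ADAMTS1 at 0.694 times (log2 fold change -0.53 ± 0.11, adjusted p = 0.00423). None of the 5 overlapped between the lines, which adds no support, as the test on the same libraries picked them. For members that were lower in the untreated edited line, the treated difference was 0.024 (95% interval -0.12 to 0.17, adjusted p = 0.877) for ADAM10, -0.11 (95% interval -0.29 to 0.081, adjusted p = 0.499) for ADAM23 and -0.0072 (95% interval -0.23 to 0.22, adjusted p = 0.981) for ADAMTS12. For ADAM22 it was 0.32 (95% interval 0.099 to 0.53, adjusted p = 0.0563), which passed without treated wild type replicate 3 (0.39), with a filter of 50 (0.32) or with DESeq2 on the recovered reads (0.30). ADAM17 differed by 0.27 (95% interval 0.068 to 0.47, adjusted p = 0.079), which passed without treated wild type replicate 3 (0.37). Among all genes called in this comparison, 63.1% were higher in the edited line, and 48.1% with library totals made equal or 50.4% after quantile normalization.

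**Figure D3:**
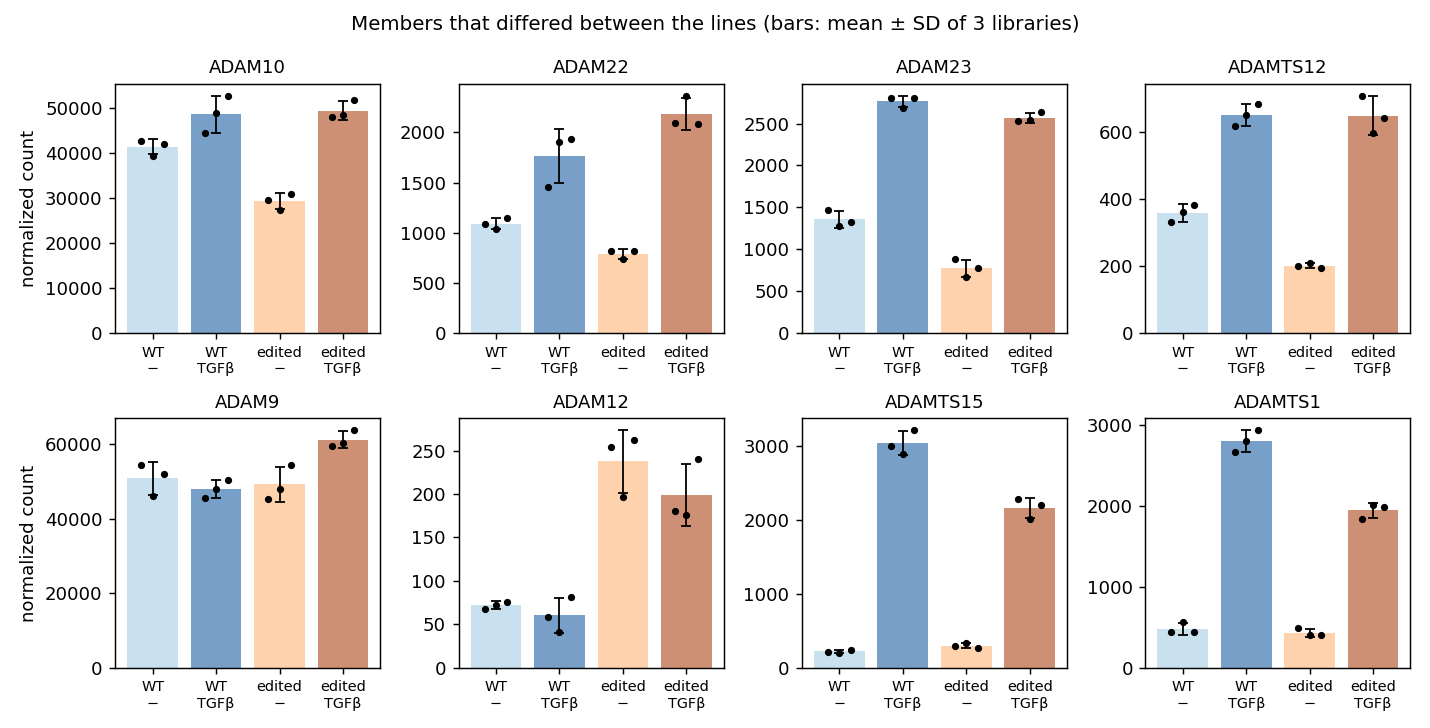
Normalized counts of 8 members in the 4 groups, as the mean (bar) ± SD of 3 libraries, with each library as a point. ADAM10, ADAM22, ADAM23 and ADAMTS12 start lower in the untreated edited line, ADAM12 is higher in both edited groups, and ADAMTS15 and ADAMTS1 end lower in the treated edited line.

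The response to TGFβ differed between the lines for 6 of the 28 tested members (21.4%), with a larger log2 change in the edited line for 5 (17.9%) and a smaller one for 1 (3.57%), where 10.6% of all tested genes had a larger and 6.02% a smaller value (16.6% in all). Differences of at least 2-fold were called for 0 members, against 1.29% of tested genes with a larger and 1.42% with a smaller value. The median difference of all tested genes was 0.02. On the log2 scale the difference was 0.82 ± 0.15 (adjusted p = 0.00138) for ADAMTS12, 0.78 ± 0.14 (adjusted p = 0.00162) for ADAM22, 0.71 ± 0.12 (adjusted p = 0.00112) for ADAM23 and 0.52 ± 0.10 (adjusted p = 0.00202) for ADAM10. These 4 genes were also lower in the untreated edited line, and this test shares the untreated libraries with that comparison. ADAMTS15 had the smaller response, by -0.93 ± 0.15 (adjusted p = 0.000563), and these 5 passed in all 24 alternative settings. For ADAM9 the difference was 0.40 ± 0.11 (adjusted p = 0.0213), a call lost without untreated wild type replicate 1 (0.35), untreated wild type replicate 3 (0.38), treated wild type replicate 2 (0.40), untreated edited replicate 1 (0.34), untreated edited replicate 2 (0.38), treated edited replicate 3 (0.37) or after quantile normalization (0.30). ADAMTS1 had a difference of -0.38 (95% interval -0.70 to -0.066, adjusted p = 0.0948), which passed without untreated wild type replicate 2 (-0.51). For the large responses of ADAMTS6, ADAMTS7 and ADAMTS9, the differences were 0.24 (95% interval -0.15 to 0.62, adjusted p = 0.416), 0.17 (95% interval -0.16 to 0.51, adjusted p = 0.512) and 0.13 (95% interval -0.099 to 0.37, adjusted p = 0.454). The share of positive values among all genes called was 63.7%, against 51.5% with equal totals and 53.4% after quantile normalization.

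Levels of different members were compared per kb of merged exons (GENCODE 29), which treats all annotated exons of a gene as transcribed. In wild type the ADAM sum per kb was 11701 ± 682 (SD, n = 3) untreated and 16851 ± 1144 treated, and in the edited line 10660 ± 728 and 18634 ± 543. ADAM9 held 62.7% of it in untreated wild type and 41.2% with TGFβ, and 66.7% and 47.4% in the edited line. ADAM19 held 0.289% untreated and 29.6% treated in wild type, against 0.268% and 25.0% in the edited line. The shares of ADAM17 were 8.29% and 4.39% in wild type and 9.33% and 4.77% in the edited line. These are shares of a sum that differed between groups: in wild type the count of ADAM9 itself was 50777 ± 4339 untreated and 47941 ± 2507 with TGFβ.

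The ADAMTS sum per kb was far lower, at 556 ± 43.3 untreated and 2688 ± 258 treated in wild type and 596 ± 22.4 and 2676 ± 70.5 in the edited line. ADAMTS10 held the largest share untreated, 32.4% in wild type and 31.8% in the edited line, followed by ADAMTS9 at 21.1% and 23.2%. With TGFβ the order in wild type was ADAMTS9 (22.4%), ADAMTS15 (20.0%), ADAMTS10 (18.7%), ADAMTS1 (14.8%) and ADAMTS6 (13.5%). In the treated edited line it was ADAMTS9 (29.1%), ADAMTS10 (19.4%), ADAMTS6 (15.2%), ADAMTS15 (14.3%) and ADAMTS1 (10.3%). The ADAMTSL sum per kb was 50.6 ± 11.4 and 94.6 ± 6.09 in wild type and 45.7 ± 8.12 and 93.0 ± 9.85 in the edited line.

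**Figure D4:**
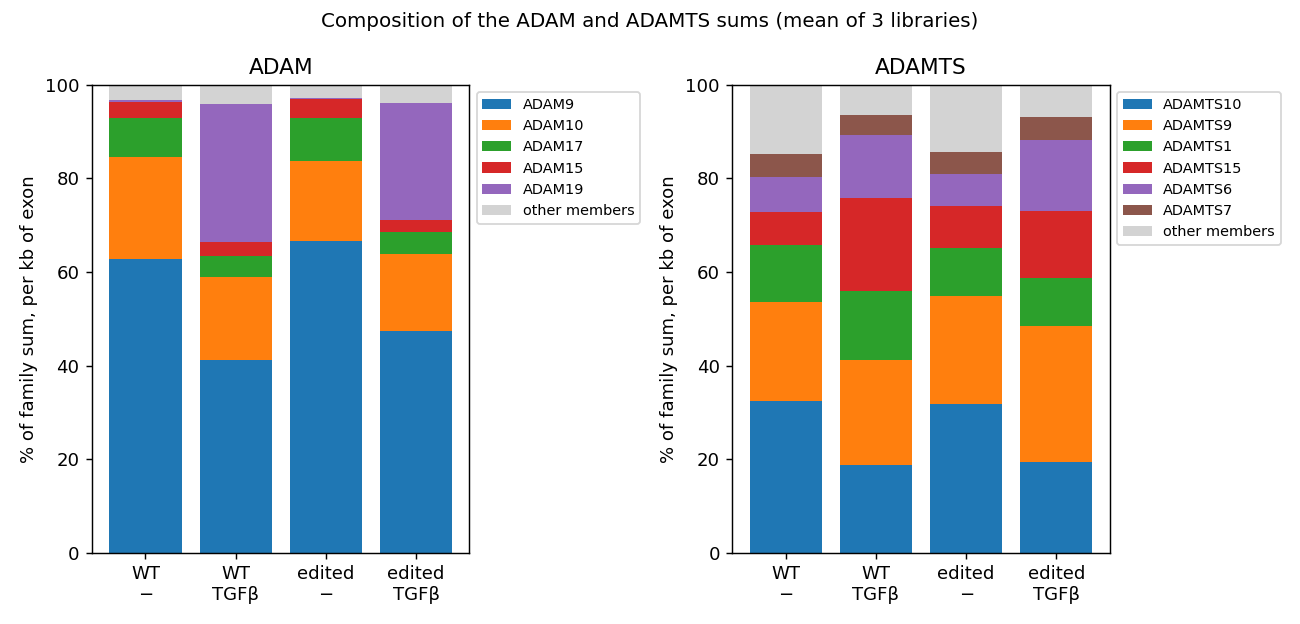
Share of each member in the ADAM sum (left) and ADAMTS sum (right) of normalized counts per kb of exon, as means of 3 libraries in the 4 groups. ADAM19 reaches 29.6% and 25.0% of the ADAM sum with TGFβ, and ADAMTS10 gives way to ADAMTS9 as the largest ADAMTS share.

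Genes that act with these proteases are given by their counts with TGFβ, without a set test. Beside them, 30.8% of all tested genes rose and 30.9% fell in wild type and 32.1% and 30.7% in the edited line, with median log2 changes of 0.02 and 0.03. The inhibitors TIMP1, TIMP2, TIMP3, TIMP4 and RECK rose in 5 of 5 in both lines, with a median log2 change of 1.66 in wild type and 1.46 in the edited line, and TIMP2 went from 3385 ± 214 to 30786 ± 2511 in wild type. Of 9 genes for the maturation and transport of ADAM10 and ADAM17 (iRhoms, FRMD8 and tetraspanins), 9 rose in wild type and 8 in the edited line, 0 fell, and the median changes were 1.35 and 1.02. TSPAN5 rose by 2.75 ± 0.12 and 3.42 ± 0.12 and TSPAN14 by 2.18 ± 0.06 and 2.10 ± 0.06. RHBDF2, an iRhom that carries ADAM17 to the surface, rose by 1.37 ± 0.06 and 1.40 ± 0.06 while ADAM17 RNA fell in wild type. Of 4 convertases, 3 rose in each line, 0 fell, and the median changes were 1.04 and 0.77. FURIN averaged 9564 ± 357 and 35067 ± 592 in wild type and 19013 ± 1096 and 40429 ± 2372 in the edited line. POFUT2 and B3GLCT, which glycosylate thrombospondin repeats, rose in 2 of 2 in both lines, with median changes of 0.93 and 1.20.

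Substrates of these proteases included genes that rose and genes that fell. Of 8 EGFR ligands, 7 could be tested, and 4 rose and 3 fell in each line, with median changes of 0.90 and 0.61. AREG, an ADAM17 substrate, had log2 falls of -4.44 ± 0.09 and -4.28 ± 0.09, and NRG1, a neuregulin that ADAM19 can cut, rose by 2.07 ± 0.06 and 2.58 ± 0.06. Of 24 other shed membrane proteins, 9 rose and 9 fell in wild type (37.5% each, near the shares of all tested genes) and 13 rose (54.2%) and 8 fell (33.3%) in the edited line, with median changes of 0.02 and 0.66. Of 6 proteoglycans, 3 could be tested, of which VCAN (versican) and ACAN (aggrecan) rose and BCAN fell in both lines, with median changes of 1.56 and 1.72. VCAN, cut by ADAMTS1, ADAMTS9 and ADAMTS15, averaged 32735 ± 3303 and 99841 ± 34563 in wild type and 40557 ± 4099 and 133568 ± 18610.5 in the edited line. Of 5 tested fibrillar procollagens, 4 rose in wild type and 3 in the edited line, with 0 falling and medians of 1.56 and 1.98. The wild type rises include COL1A2, whose log2 change of 1.56 is that median. It averaged only 1.21 untreated and 4.99 treated in wild type, and 27.7 and 33.0 in the edited line, which carried it past the filter. Of 9 tested matrix proteins that ADAMTS enzymes cut or work with, 8 rose in each line and VWF alone fell, in the edited line, with medians of 2.61 and 2.42. Outside the name rule, THSD4 fell and PAPLN rose in both lines, and ADAMDEC1 could not be tested.

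Of the 18 members below the filter, ADAM5, ADAM6 and ADAM30 had a count of 0 in all 12 libraries. The other 15 were ADAM2, ADAM7, ADAM18, ADAM20, ADAM29, ADAM33, ADAMTS4, ADAMTS5, ADAMTS14, ADAMTS18, ADAMTS19, ADAMTS20, ADAMTSL1, ADAMTSL2 and ADAMTSL3, with a highest value of 19.3 in any library. ADAMTS4 and ADAMTS5, the main aggrecan-cleaving enzymes of cartilage, reached at most 13.4 and 2.15. ADAM18, a sperm-associated member, was the nearest below the filter, reaching 10 in 2 libraries. It was at 0 in all 6 untreated libraries, at 2.20, 8.63 and 17.7 in treated wild type and at 1.04, 4.31 and 19.3 in the treated edited line. The nearest member above the filter was ADAMTS17, reaching 10 in 5 libraries, whose counts of 9.97, 7.41 and 3.22 and 24.2, 15.3 and 9.25 in wild type and 9.29, 15.0 and 3.27 and 8.35, 16.2 and 21.6 in the edited line overlapped between conditions.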

How the data were processed

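RNA-seq of 12 A549 libraries was analysed from 1 table of normalized counts per gene, a signal that the authors made from reads and deposited. The submitters' processing notes name GRCh38.p14 and the tools DESeq2, featureCounts, StringTie and HISAT2; for their versions and the use of strand, the sources used here give nothing. Dividing a library's values by 1 fixed step gave whole numbers (100% within a tolerance of 0.01), which returned 84210775 to 111141708 reads per library. With these reads the depth limits only the lowest members. The 28 symbols that a spreadsheet had turned into dates stayed in the tests.

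For the 20456 genes that reached 10 in 3 or more of 12 libraries, limma 3.58.1 (R 4.3.3, with a mean-variance trend) was fitted to log2(value + 1), in 1 fit of the 4 group means with 5 two-sided comparisons, Benjamini-Hochberg adjustment over all genes tested and a threshold of 0.05. This scale understates the fold change of low genes. The ± gives the SE of a log2 change or the SD of a mean (n = 3). The numbers of genes that limma called were 12624 (TGFβ, wild type), 12842 (TGFβ, edited line), 6514 (lines, untreated), 2394 (lines, treated) and 3395 (difference of responses), and edgeR's quasi-likelihood test (4.0.16), run on those whole reads, gave 12669, 12803, 6529, 2564 and 3404. DESeq2 1.42.0 was also run.

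Every member past the filter is named. Library values are given for members with a called log2 change of at least 1 and a mean of at least 50, and for the most abundant per length of each class; those of some other members were added after their values were seen. Members and lists were chosen with earlier results of these data known. Related lists are described by counts, without a set test. Alternatives covered the pseudocount, filter, scaling, robust variance, a replicate block, the compared groups alone and each library left out; leaving out replicate 1 of both treated groups was added after seeing the data. Motifs planned for the proteins were not counted.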

Additional observations from a re-analysis of the deposited data

Results flagged for a closer look

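The response to TGFβ differed between the lines for 6 members, by a test of the difference itself (limma, 3 libraries per group, adjusted p under 0.05). On the log2 scale, as the response of the edited line minus that of wild type, the difference was 0.82 for ADAMTS12, 0.78 for ADAM22, 0.71 for ADAM23, 0.52 for ADAM10 and 0.40 for ADAM9. ADAMTS15 had a difference of -0.93. The ADAM9 call was lost without 6 of the 12 single libraries and after quantile normalization, as given beside its value; the other 5 calls held in the 24 alternatives run.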

How the results depend on the processing

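Of the 140 log2 changes of tested members, the 88 that were called or whose value is printed were recalculated 2181 times: 2082 kept direction and side of the threshold, 68 lost the call, 14 gained one and 17 changed sign. For TGFβ in wild type, the members called lower numbered 3 after quantile normalization and 1 to 2 without single libraries; in the edited line they numbered 1 with no filter or with only the compared groups fitted. Members called higher in the untreated edited line numbered 3 to 5 without single libraries. With TGFβ they numbered 3 to 5 without single libraries and 5 with the replicate block. Members with a smaller response in the edited line numbered 2 with no filter and 1 to 3 without single libraries. Over all 140 changes, the sign changed in at least 1 alternative for 37, of which 0 were among the 60 called. Of these 37, 6 have a printed value. Without single libraries the log2 change of ADAMTSL4 with TGFβ in wild type ran from -0.13 to 0.16 (0.16 also without replicate 1 of both treated groups, an alternative added after seeing the data), and it was 0.00707 and 0.0282 without untreated wild type replicates 1 and 2. The treated line difference of ADAMTS12 ran from -0.0724 to 0.0529, the untreated one of ADAM9 from -0.12 to 0.00999 and the response of edited ADAM8 from -0.0905 to 0.36. That of edited ADAMTS13 ran from -0.0215 to 0.22 and was -0.12 after quantile normalization and -0.0215 without replicate 1 of both treated groups. The treated line difference of ADAM10 ran from -0.0391 to 0.0836 and was -0.00894 with equal totals, -0.031 after quantile normalization and -0.0179 without replicate 1 of both treated groups. Causes were not tested. Deviations of the 18 same-numbered library pairs correlated at -0.031 to 0.129, with 1 above 0.1, so the numbers are not treated as pairing. With the replicate block, the treated line differences of ADAM17 (0.27) and ADAM22 (0.32) passed. Over all genes, the replicate block called 12920, 13096, 7068, 2987 and 3987 in the 5 comparisons. Between treated lines, 2394 genes were called, 1183 with only the compared groups and 1387 without treated edited replicate 3. Quantile normalization shifted the median of all genes for TGFβ in the edited line by -0.108.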
